A study of Mus musculus with 16 samples.

Results

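The 39 genes described here code for proteins that repair DNA or hold the cell cycle while DNA is damaged, and were followed in mouse liver during regrowth. They were chosen by name from lists of homologous recombination, Fanconi anaemia, lesion bypass, mismatch repair, end joining and checkpoint genes, and all 39 were found among the 54838 genes counted. Messenger RNA was sequenced from whole liver of wild type male C57BL/6J mice in 4 groups. CCl4 livers (n = 3) came from mice given 2 µL per g of body weight of carbon tetrachloride and olive oil, mixed 1 to 1, into the peritoneum, and olive oil livers (n = 3) from mice given the same volume of oil. Both were taken 3 days after the injection. PH day 3 livers (n = 5) were taken 3 days after partial hepatectomy, the surgical removal of part of the liver, and PH day 0 livers (n = 5) are the tissue resected at the operation, with no sham operation in the comparison. The labels give no age and do not say whether a PH day 0 and a PH day 3 sample came from 1 animal.

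Homologous recombination copies an intact sister strand to mend a broken one, and works mostly in cells that have replicated their DNA. The Fanconi anaemia pathway unhooks crosslinked strands and hands the break to recombination, while end joining and single-strand break repair work throughout the cell cycle. Checkpoint kinases of the ATM and ATR branches sense breaks and stalled forks and delay division. The adult liver divides little, but its hepatocytes re-enter the cell cycle after tissue loss or toxic injury, and CCl4 is turned by hepatocytes into a radical that damages cells around the central vein.

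Total counts per sample were 4738196 to 6218526 in CCl4 livers, 4295169 to 5221957 in olive oil livers, 2795909 to 4391002 in PH day 3 livers and 3271398 to 8647503 in PH day 0 livers. Levels are CPM, read counts scaled by library size and TMM factors, and 3 counts in a sample corresponded to 0.368 to 1.03 CPM. The 8 hepatocyte markers, of which albumin (Alb) held most of the sum, came to 84950 to 106600 CPM in CCl4 livers, 98080 to 109400 CPM in olive oil livers, 106500 to 122900 CPM in PH day 3 livers and 71400 to 91670 CPM in PH day 0 livers. Changes are log2 fold changes ± SE, and "rose" or "fell" is used for a Benjamini-Hochberg adjusted p under 0.05 over all genes tested with edgeR's quasi-likelihood test. The labels do not state that samples of a group are separate animals, so p-values measure the spread between these samples. Of the 8 hepatocyte markers 1 fell after CCl4 (12.5%, against 11.6% of all genes tested). It was Cyp2e1 (-3.89 ± 0.30), which codes for the enzyme that activates CCl4. After PH, Alb rose (0.77 ± 0.11) and the apolipoprotein gene Apoa1 (-0.41 ± 0.10) and Cyp2e1 (-1.26 ± 0.14) fell. That is 12.5% risen and 25.0% fallen, against 9.73% and 8.01% of all genes tested.

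In unchallenged liver, the 39 genes covered a wide range of levels. Per kilobase of exon, Rad23b, which binds the nucleotide excision factor XPC and the proteasome, stood highest, at 25.8 ± 1.39 CPM per kilobase in olive oil livers (SD, n = 3) and 27.8 ± 1.95 in PH day 0 livers (SD, n = 5). Xrcc5, a subunit of the Ku ring that caps broken ends, followed at 10.9 ± 1.81 CPM per kilobase in olive oil livers and 10.02 ± 1.69 in PH day 0 livers. Parp1, the main sensor of single-strand breaks, came next at 7.14 ± 0.713 and 7.96 ± 1.02 CPM per kilobase in these groups, and the other Ku subunit, Xrcc6, stood at 4.08 ± 0.859 and 4.03 ± 0.729. The next ranks, Fance at 3.08 ± 1.09, Msh6 at 2.92 ± 0.753 and Rad50 at 2.38 ± 0.229 CPM per kilobase in olive oil livers, lay within each other's spread. At the bottom of the order in olive oil livers stood the Fanconi core gene Fanca at 0.0256 ± 0.0251 and the nuclease gene Exo1 at 0.0186 ± 0.0162 CPM per kilobase, and no read of Bard1 or Fanci was counted there.

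**Figure D1:**
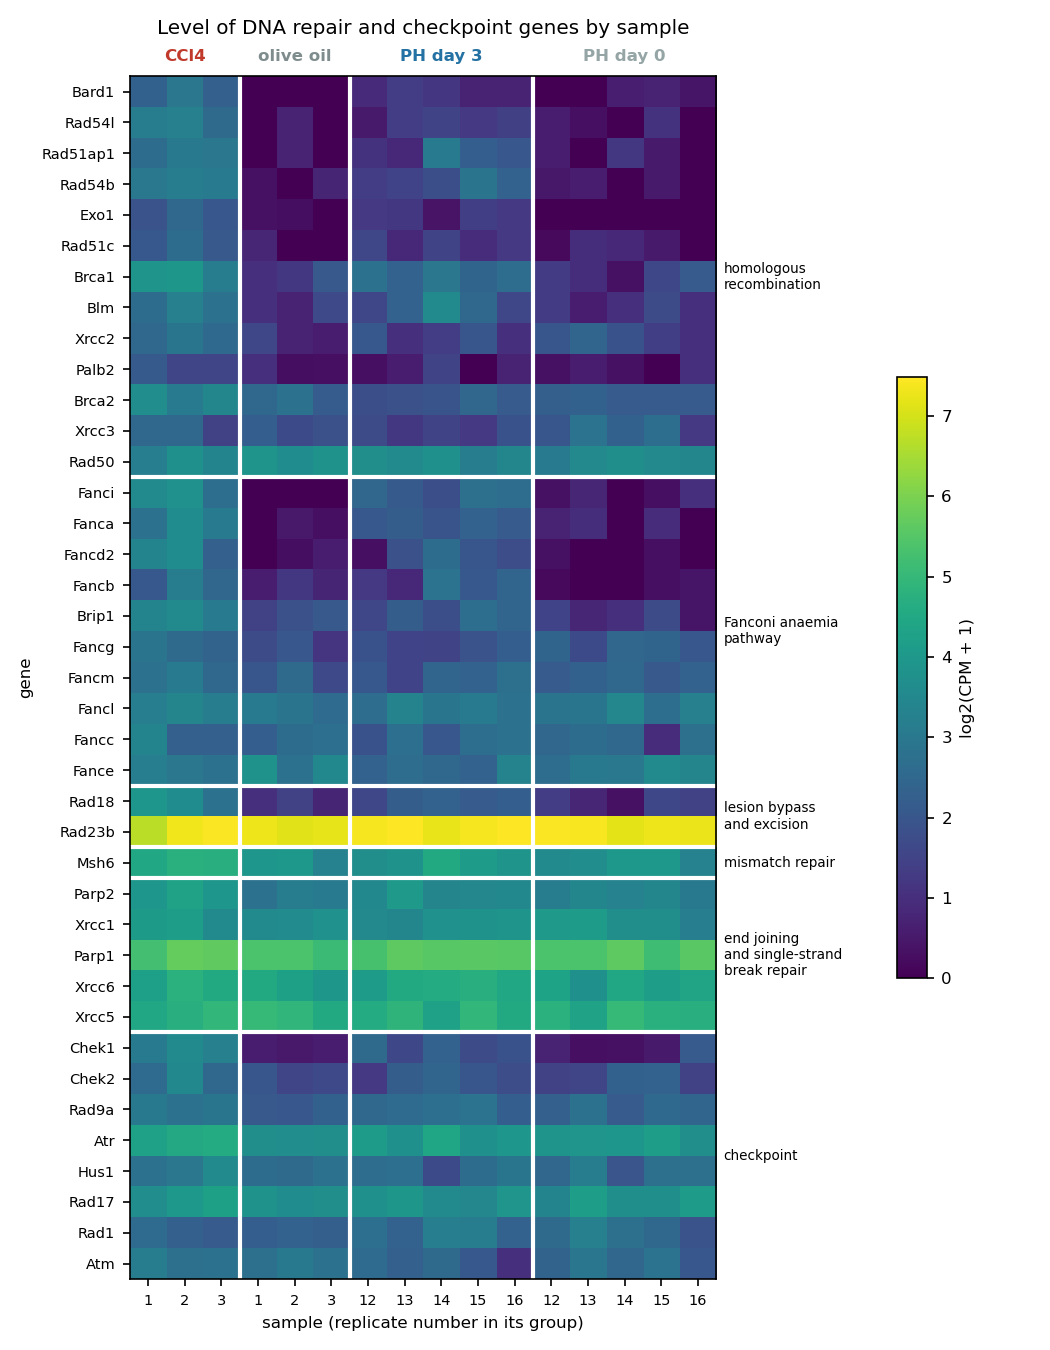
Level of the 39 genes as log2(CPM + 1), with the genes in rows grouped by role and the 16 samples in columns grouped as CCl4, olive oil, PH day 3 and PH day 0. Colours compare a gene between samples and not genes of different length. Fanci, Bard1 and Rad54l are dark in the olive oil columns and lighter in the 3 CCl4 columns, while Rad23b is bright throughout.

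The first question is which repair genes had moved by day 3 of a toxic injury, with CCl4 set against olive oil. Of the 39 genes, 21 rose and 0 fell, or 53.8%, where 11.3% of the 11337 genes tested rose and 11.6% fell. The median change of the 39 was 1.13 on the log2 scale, beside 0.006 for all genes tested. In 26 of 39 genes (66.7%) every CCl4 sample lay above every olive oil sample, against 21.4% of all genes tested, and in 0 of 39 every CCl4 sample lay below, against 20.2%. Of the 21 that rose, 15 had fewer than 10 counts in every olive oil sample, so that they passed the filter on low counts through their CCl4 level. The other 6 were among 24 genes with at least 10 counts in an olive oil sample. The filter asks for about 10 counts in as many samples as a group holds. Of the 6, Brca1, Brip1 and Chek2 did not meet this in olive oil livers and also passed through their CCl4 level. Msh6, Parp2 and Atr met it in olive oil livers. Tested with no such filter, 20 of the 39 rose (51.3%), against 8.45% of 19592 genes, and 0 fell, against 8.18%.

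Homologous recombination had the most risen members, 10 of 13, with a median change of 2.66. Over all genes tested 11.3% rose and the median was 0.006, which holds beside the other roles too. All the risen recombination genes but Brca1 had fewer than 10 counts in every olive oil sample, and so passed the filter through their CCl4 level. Brca1, with 4, 6 and 14 counts in the olive oil samples, passed it through its CCl4 level too. Brca1, the tumour suppressor that steers breaks to recombination, stood at 13.8, 14.5 and 7.99 CPM in the CCl4 samples, against 1.00, 1.31 and 3.30 CPM in the olive oil samples. The groups did not overlap, and the change was 2.66 ± 0.46 (adjusted p = 0.0026). Bard1, its obligate partner, stood at 4.02, 6.75 and 3.91 CPM in the CCl4 samples, with 98 counts in all, against 0 counts in every olive oil sample. That is at least 22.0-fold higher, taking 3 counts over the olive oil group as the floor (adjusted p = 0.0015 in the edgeR test). Both members of the BRCA1 and BARD1 pair were higher in all 3 CCl4 samples.

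Rad54l, a motor protein of recombination, stood at 8.04, 8.59 and 5.05 CPM in the CCl4 samples, against 0, 0.658 and 0 CPM in the olive oil samples. With 139 counts against 3, the ratio was 31.2 (95% counting interval 10.5 to 153; edgeR adjusted p = 0.0017). Rad54b, its close relative, stood at 6.98, 7.98 and 7.33 CPM in the CCl4 samples, against 0.250, 0 and 0.706 CPM in the olive oil samples. Its change was 4.45 ± 0.64 (adjusted p = 0.0010), and its 3 CCl4 samples were closely spaced. Rad51ap1, a recombination cofactor, had a ratio of 28.1 (interval 9.39 to 138), Rad51c, which acts in recombination, 17.5 (5.78 to 86.8), and Exo1, which resects broken ends, 23.6 (6.29 to 199), each from 3 or fewer counts in olive oil livers. The 3 olive oil counts of Rad54l and of Rad51ap1 all lay in the second olive oil sample and those of Rad51c in the first, and without that sample the fitted changes, then against 0 counts and no bounds, were 8.30 for Rad54l, 8.13 for Rad51ap1 and 7.46 for Rad51c, against 4.81, 4.64 and 3.92 with all samples.

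Blm, the helicase that dissolves joined DNA molecules, rose by 2.36 ± 0.50, and Xrcc2, whose product shares a complex with that of Rad51c, by 2.35 ± 0.55. Palb2, the bridge between BRCA1 and BRCA2, was the called gene nearest the threshold, at 2.27 ± 0.71 (adjusted p = 0.044). Brca2, a mediator of recombination, was the uncalled gene nearest to it, at 0.98 ± 0.33 (adjusted p = 0.055). Neither Xrcc3 (0.38 ± 0.50) nor Rad50 (-0.34 ± 0.25) passed the test. Rad50 belongs to the complex that holds broken ends, and its level of 8.25 to 12.6 CPM in CCl4 livers overlapped that of 11.4 to 13.8 CPM in olive oil livers.

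In the Fanconi anaemia pathway 5 of 10 genes rose, with a median of 1.53. Fanci and Fancd2 code for the clamp that is ubiquitinated at a crosslink. Fanci stood at 10.8, 12.9 and 5.54 CPM in the CCl4 samples, against no count in any olive oil sample, which is at least 42.7-fold higher (edgeR adjusted p = 0.00066). Fancd2 stood at 9.31, 11.5 and 3.91 CPM in the CCl4 samples, against 0, 0.219 and 0.471 CPM in the olive oil samples. The ratio was 36.4 (counting interval 12.2 to 178; edgeR adjusted p = 0.0012). Of both clamp genes, the third CCl4 sample held the least and still lay above all olive oil samples.

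Of the complex that ubiquitinates this clamp and its anchor, Fanca and Fancb passed the test. Fanca, a core subunit, stood at 6.14, 11.4 and 7.50 CPM in the CCl4 samples, against 0, 0.439 and 0.235 CPM in the olive oil samples, a ratio of 37.7 (counting interval 12.7 to 185; edgeR adjusted p = 0.00057). Fancb, a partner of the catalytic subunit, rose by 2.58 ± 0.57. Fancl, the ubiquitin ligase itself, had a change of 0.43 ± 0.29, Fancm, the helicase that anchors the complex, 0.81 ± 0.41, Fancg 1.23 ± 0.45, Fancc 0.18 ± 0.43 and Fance -0.51 ± 0.33, and none of these 5 passed. Brip1, a helicase that binds BRCA1 and acts after the clamp, rose by 1.84 ± 0.36.

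Rad18, the ubiquitin ligase that opens lesion bypass, stood at 14.4, 11.5 and 6.03 CPM in the CCl4 samples, against 1.00, 1.75 and 0.706 CPM in the olive oil samples. It rose by 3.15 ± 0.49 (adjusted p = 0.0015), with no overlap. Rad23b stood at 103, 159 and 174 CPM in the CCl4 samples, against 157, 141 and 146 CPM in the olive oil samples. Its groups overlapped, and the change was -0.05 ± 0.19. Msh6, which recognises mismatches, rose by 0.92 ± 0.23.

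Of the 5 genes of end joining and single-strand break repair, Parp2 rose, by 1.13 ± 0.25. It codes for the smaller relative of PARP1. Parp1 itself had a change of 0.27 ± 0.17, the scaffold gene Xrcc1 0.31 ± 0.24, and the Ku genes Xrcc5 and Xrcc6 -0.14 ± 0.19 and 0.27 ± 0.22, and none of these passed.

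Among the checkpoint genes 3 of 8 rose, with a median of 0.67. Chek1, the kinase downstream of ATR, had the smallest adjusted p of the 39. It stood at 7.62, 10.9 and 8.64 CPM in the CCl4 samples, against 0.500, 0.439 and 0.471 CPM in the olive oil samples, a change of 4.20 ± 0.45 (adjusted p = 0.00023). Atr, which senses single-stranded DNA at stalled forks, rose by 0.82 ± 0.19, and Chek2, the kinase downstream of ATM, by 1.49 ± 0.45. Atm, the sensor of double-strand breaks, had a change of 0.01 ± 0.31 and did not pass. The clamp genes Rad9a (0.90 ± 0.34), Hus1 (0.51 ± 0.33) and Rad1 (0.06 ± 0.37) and the clamp loader gene Rad17 (0.26 ± 0.23) did not pass either.

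Of the 21 calls, 13 held in every fit that left out 1 sample and under every alternative of scaling, filter and tool, and 8 ended in at least 1 of them. The 8 are Palb2, Rad51c, Xrcc2, Fancb, Msh6, Parp2, Atr and Chek2. Their highest adjusted p over the alternatives (edgeR, DESeq2 or limma-voom) was 0.16 for Palb2, 0.052 for Rad51c, 0.061 for Xrcc2, 0.054 for Fancb, 0.062 for Msh6, 0.052 for Parp2, 0.051 for Atr and 0.19 for Chek2. Without the second CCl4 sample the calls of Palb2, Xrcc2, Fancb, Msh6, Parp2, Atr and Chek2 ended. Without the third olive oil sample those of Palb2, Rad51c, Xrcc2, Fancb, Msh6 and Chek2 ended. The number that rose was 14 and 15 of 39 in these fits, and 26 when scaled by library size alone, which moved the median of all genes by 0.45. Calls were also gained. Brca2 passed with DESeq2 (adjusted p = 0.041), in the fit of all 4 groups (edgeR adjusted p = 0.026) and by library size alone, Fancg and Rad9a in the last 2 of these (edgeR adjusted p = 0.038 and 0.043 in the fit of all 4 groups), and Fancm and Parp1 by library size alone.

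**Figure D2:**
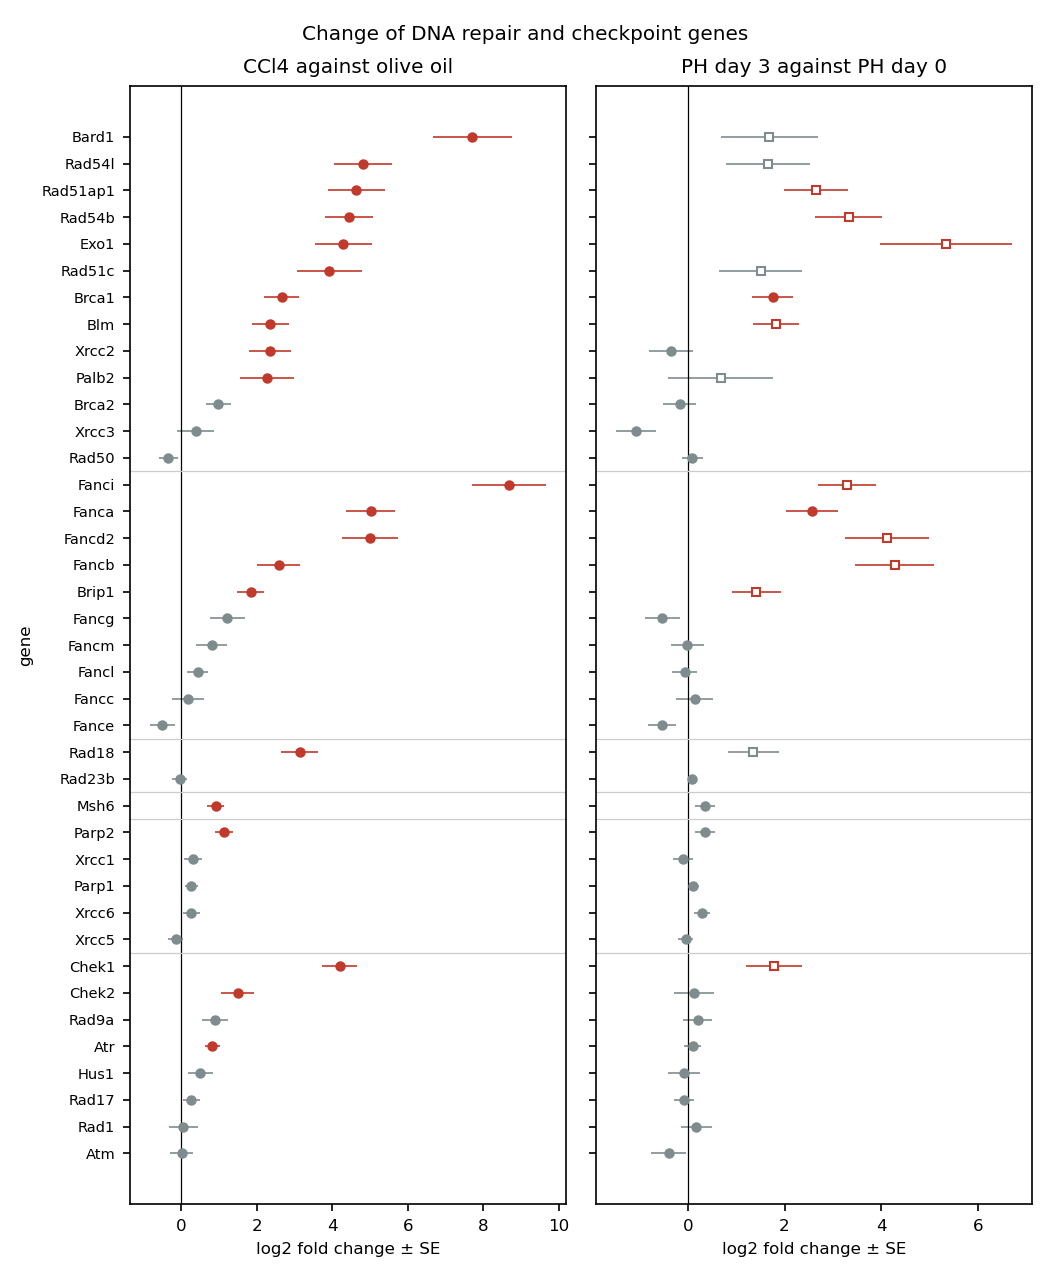
Log2 fold change ± SE of each of the 39 genes, CCl4 against olive oil on the left and PH day 3 against PH day 0 on the right, with genes grouped by role as in the plot of levels and separate horizontal scales. Red marks an adjusted p under 0.05, and open squares are the 14 genes under the count filter of the hepatectomy comparison, taken from the fit with no filter; Fanci and Bard1, with no count in olive oil, and Exo1, with no count at PH day 0, have fitted values that are no bounds.

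The start regions of 6 genes are shown because they set genes that rose and genes with no call side by side for a word of the E2F site, the element through which many genes of DNA replication are switched at the start of S phase. Each run holds 250 bases before to 50 bases after the RefSeq start (build GRCm38.p6), on the strand of the gene. Capitals mark a match of TTCCCGC or TTGGCGC or of their reverse complements GCGGGAA and GCGCCAA. Of the 6, Brca1, Fanci, Chek1 and Fanca rose after CCl4, while Atm and Rad23b did not pass the test.
Brca1 (chr11:101551906-101552205, minus strand): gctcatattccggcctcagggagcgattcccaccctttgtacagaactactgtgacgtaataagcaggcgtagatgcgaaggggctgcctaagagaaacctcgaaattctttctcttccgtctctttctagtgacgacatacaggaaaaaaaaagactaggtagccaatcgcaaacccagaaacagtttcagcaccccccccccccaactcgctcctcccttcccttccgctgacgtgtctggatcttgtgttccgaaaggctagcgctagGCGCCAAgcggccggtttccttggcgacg
Fanci (chr7:79392088-79392387, plus strand): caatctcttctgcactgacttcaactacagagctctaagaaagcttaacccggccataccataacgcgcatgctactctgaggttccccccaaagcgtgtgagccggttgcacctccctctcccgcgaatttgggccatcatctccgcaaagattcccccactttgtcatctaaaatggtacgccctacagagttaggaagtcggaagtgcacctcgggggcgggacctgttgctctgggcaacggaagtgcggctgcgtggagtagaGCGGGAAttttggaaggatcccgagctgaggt
Chek1 (chr9:36726609-36726908, minus strand): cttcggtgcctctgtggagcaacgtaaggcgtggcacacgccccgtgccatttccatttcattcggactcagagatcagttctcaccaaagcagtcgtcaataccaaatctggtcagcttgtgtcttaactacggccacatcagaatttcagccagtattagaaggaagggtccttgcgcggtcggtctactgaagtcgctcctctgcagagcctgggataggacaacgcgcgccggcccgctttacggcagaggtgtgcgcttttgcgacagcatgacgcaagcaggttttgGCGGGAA
Fanca (chr8:123318527-123318826, minus strand): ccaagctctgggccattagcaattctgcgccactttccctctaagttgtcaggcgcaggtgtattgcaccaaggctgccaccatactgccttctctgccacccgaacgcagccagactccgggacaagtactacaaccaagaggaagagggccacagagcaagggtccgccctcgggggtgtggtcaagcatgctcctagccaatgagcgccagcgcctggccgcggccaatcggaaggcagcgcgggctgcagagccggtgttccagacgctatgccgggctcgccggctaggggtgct
Atm (chr9:53536622-53536921, minus strand): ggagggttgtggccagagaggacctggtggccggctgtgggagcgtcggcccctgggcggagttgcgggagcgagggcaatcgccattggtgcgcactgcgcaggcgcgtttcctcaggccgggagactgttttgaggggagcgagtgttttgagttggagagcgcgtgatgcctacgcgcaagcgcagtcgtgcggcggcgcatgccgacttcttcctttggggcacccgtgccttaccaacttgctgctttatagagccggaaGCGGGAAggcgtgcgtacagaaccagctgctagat
Rad23b (chr4:55349792-55350091, plus strand): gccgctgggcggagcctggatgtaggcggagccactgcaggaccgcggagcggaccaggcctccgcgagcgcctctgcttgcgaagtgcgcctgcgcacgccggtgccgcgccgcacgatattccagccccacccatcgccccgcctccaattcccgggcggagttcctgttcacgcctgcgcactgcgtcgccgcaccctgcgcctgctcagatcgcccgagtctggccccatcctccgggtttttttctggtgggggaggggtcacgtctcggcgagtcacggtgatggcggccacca
Counting the first transcribed base as 1, the match began at base 22 in Brca1, base 19 in Fanci, base 44 in Chek1 and base 16 in Atm, each on the strand opposite the gene. No match lies in the windows of Fanca and Rad23b. RefSeq start regions were at hand for 33 of the 39 genes, not for Rad50, Rad9a, Xrcc2, Exo1, Fancd2 and Rad54b. A match was found in 14 of 33 (42.4%), against 14.0% of the 8932 tested genes with a start region and 7.79% of all 27025. It was found in 9 of 17 genes that rose after CCl4 (52.9%) and in 5 of 16 with no call (31.2%). The CCAAT box (CCAAT or ATTGG) was found in 19 of 33 (57.6%), against 43.2% of tested genes. The CHR word (TTTGAA with its reverse complement TTCAAA, and the palindrome TTTAAA), an element of genes of late cell cycle, was found in 3 of 33 (9.09%), against 22.8%. Both strands were searched; GCGCCAA followed by T also holds CCAAT. A match describes the sequence and not binding.

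The same question was put to surgical loss of tissue, with PH day 3 set against PH day 0. Here 25 of the 39 genes passed the count filter, of which 2 rose and 0 fell, where 9.73% of 10546 genes rose and 8.01% fell. The 2 were Fanca and Brca1, and they were also the only ones of the 25 in which every PH day 3 sample lay above every PH day 0 sample (8.0%, against 6.75% of all genes tested), while in 0 of 25 every one lay below, against 6.62%. The filter left out 14 genes with too few reads at these depths, all of which had risen after CCl4. Tested with no filter, 11 of the 39 rose (28.2%) and 0 fell, against 6.96% and 4.88% of 20257 genes. All 11 (100%) were among the 21 that rose after CCl4, of which they made up 52.4%. Over all genes, 41.9% of the 1409 that rose after PH with no filter were among the 1279 that rose after CCl4, and made up 46.1% of these. The 100% and 41.9% are not over like sets. The CCl4 fit tested 11337 genes, so a gene that rose after PH need not have been tested there, while all 39 were.

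Fanca stood at 3.16, 3.64, 2.82, 4.14 and 3.40 CPM in the PH day 3 samples, against 0.656, 0.991, 0, 0.921 and 0 CPM in the PH day 0 samples. The groups did not overlap, and the change was 2.57 ± 0.53 (adjusted p = 0.0011). Brca1 stood at 5.88, 4.16, 6.89, 4.37 and 5.44 CPM in the PH day 3 samples, against 1.44, 0.991, 0.266, 2.07 and 3.43 CPM in the PH day 0 samples. Its groups did not overlap either, and the change was 1.75 ± 0.42 (adjusted p = 0.0047). Both calls held in every fit that left out 1 sample and under every alternative. Both genes had fewer than 10 counts in some PH day 0 samples, and passed the filter through their PH day 3 level.

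The uncalled gene nearest the threshold was Xrcc3, whose product pairs with that of Rad51c. It stood at 2.26, 1.30, 1.88, 1.38 and 2.72 CPM in the PH day 3 samples, against 3.02, 6.196, 4.00, 5.53 and 1.37 CPM in the PH day 0 samples. The change was -1.08 ± 0.42 (adjusted p = 0.078), and without PH day 0 replicate 16, its lowest baseline sample, the adjusted p was 0.034 with edgeR.

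Fance, which links the core complex to the clamp, stood at 4.07, 5.46, 4.70, 4.14 and 9.18 CPM in the PH day 3 samples, against 5.38, 7.19, 6.93, 11.1 and 9.60 CPM in the PH day 0 samples (-0.53 ± 0.29). Fancg, another core subunit, stood at 2.71, 1.82, 1.88, 2.76 and 3.74 CPM in the PH day 3 samples, against 4.33, 2.23, 4.53, 4.38 and 3.08 CPM in the PH day 0 samples (-0.53 ± 0.36). The groups of both overlapped, and neither passed. Msh6 stood at 12.0, 13.5, 22.6, 16.6 and 13.6 CPM in the PH day 3 samples, against 11.02, 11.7, 14.9, 15.0 and 8.91 CPM in the PH day 0 samples (0.35 ± 0.20). Its groups overlapped. Xrcc6 stood at 16.3, 22.6, 23.2, 25.5 and 21.4 CPM in the PH day 3 samples, against 19.4, 12.6, 21.1, 17.5 and 19.5 CPM in the PH day 0 samples (0.29 ± 0.17). Parp2 stood at 10.2, 15.3, 9.71, 10.1 and 10.2 CPM in the PH day 3 samples, against 7.87, 9.91, 9.06, 9.91 and 7.196 CPM in the PH day 0 samples (0.35 ± 0.21). Among these, PH day 3 replicate 13 was the high sample of Parp2, and replicate 14 that of Msh6.

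The other 17 tested genes had changes between -0.40 and 0.20. Among the recombination genes these were Brca2 (-0.17), Xrcc2 (-0.35) and Rad50 (0.09), and among the Fanconi genes Fancc (0.14), Fancl (-0.07) and Fancm (-0.01). Rad23b had 0.09, Xrcc1 -0.11, Xrcc5 -0.04 and Parp1 0.11. Of the checkpoint genes, Atm had -0.40, Atr 0.10, Chek2 0.13, Rad1 0.17, Rad9a 0.20, Hus1 -0.08 and Rad17 -0.08. None of the 17 passed.

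Of the 14 genes under the filter, all of which had risen after CCl4, 9 rose in the fit with no filter and in a fit of all 4 groups. With no filter 6.96% of 20257 genes rose. Both fits hold the same PH samples, so the second is no separate check. Fanci had 4.52, 3.38, 2.51, 5.75 and 5.44 CPM in the PH day 3 samples, against 0.262, 0.744, 0, 0.230 and 1.03 CPM in the PH day 0 samples. With 82 counts against 9, the change was 3.29 ± 0.61 (edgeR adjusted p = 2.2e-06). Fancb had 56 counts in the PH day 3 samples and 3 in the PH day 0 samples, a ratio of 22.6 (counting interval 7.33 to 113). Fancd2 had 48 counts against 3, a ratio of 19.3 (6.23 to 97.1), although PH day 3 replicate 12 held only 0.226 CPM, within the PH day 0 range.

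Exo1 had 23 counts in the PH day 3 samples and 0 in the PH day 0 samples, at least 9.27-fold higher against a floor of 3 counts over the group. Rad54b had 1.58, 1.82, 2.51, 6.44 and 4.08 CPM in the PH day 3 samples, against 0.394, 0.496, 0, 0.461 and 0 CPM in the PH day 0 samples. It changed by 3.33 ± 0.69 (edgeR adjusted p = 4.7e-05). In Rad54b, Exo1, Fancb and Fanci all 5 PH day 3 samples lay above all 5 PH day 0 samples. The share of all genes under the filter that did so was not counted.

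The remaining genes called with no filter were Rad51ap1 (2.65 ± 0.66), Blm (1.83 ± 0.48), Chek1 (1.78 ± 0.58) and Brip1 (1.42 ± 0.51). Chek1 overlapped through PH day 0 replicate 16 alone, at 3.43 CPM, where the other 4 baseline samples held 0.248 to 0.656 CPM and the PH day 3 samples 2.08 to 4.97 CPM. Brip1 was nearest the threshold, with an edgeR adjusted p of 0.046. The genes that stayed uncalled were Bard1 (1.69 ± 1.01), Rad54l (1.65 ± 0.87), Rad51c (1.504 ± 0.85), Rad18 (1.35 ± 0.53) and Palb2 (0.67 ± 1.08), of which Rad18 passed in the fit of all 4 groups (edgeR adjusted p = 0.036). Palb2, with 11 counts against 8, showed no difference detectable at this depth.

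**Figure D3:**
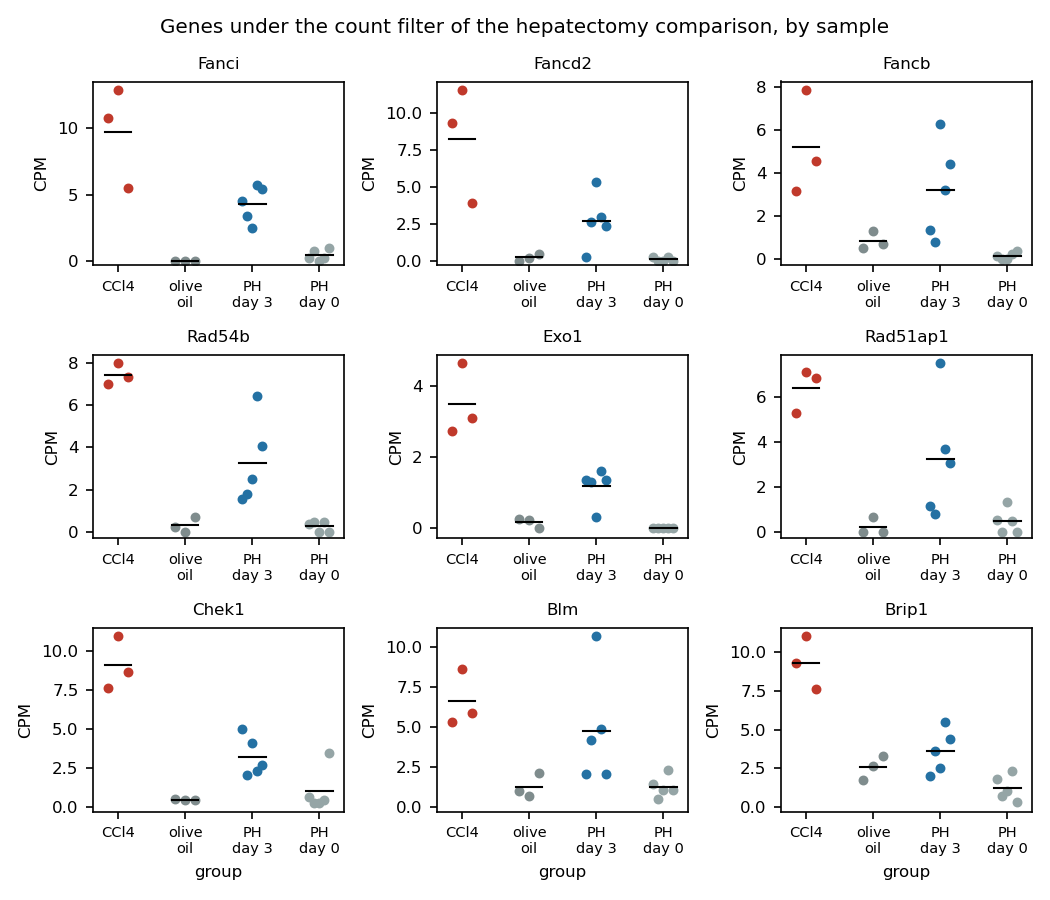
CPM per sample of the 9 genes that were under the count filter of the hepatectomy comparison and rose in its fit with no filter, for CCl4, olive oil, PH day 3 and PH day 0 livers; points are samples and black lines group means. Vertical scales differ between genes. The 5 PH day 3 points of Fanci, Fancb, Rad54b and Exo1 lie above all PH day 0 points.

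Whether the response differed between the challenges was tested as the CCl4 change minus the PH change in 1 fit of 16 samples. The fitted change was larger after CCl4 in 33 of 39 genes, a share that was not counted over all genes. The median difference was 0.76, beside 0.02 for all genes tested. Among the 33 are Bard1, Fanci, Rad54l and Rad51ap1, whose fitted changes after CCl4 rest on 3 or fewer counts in olive oil livers. Of the 39, 2 passed, Xrcc2 and Fanci, or 5.13%, where 5.33% of 11868 genes passed in either direction, 1.47% in this one and 3.87% in the other. For Xrcc2 the samples held 4.66, 6.51 and 4.89 CPM after CCl4, against 2.00, 0.658 and 0.471 CPM after olive oil. They held 3.16, 1.04, 1.57, 2.99 and 1.02 CPM at PH day 3, against 3.02, 4.46, 2.66, 1.61 and 1.03 CPM at PH day 0. The difference was 2.73 ± 0.77 (adjusted p = 0.037), and Xrcc2 was above its control range after CCl4 while the surgical groups overlapped.

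For Fanci the difference was 5.16 ± 1.504 (adjusted p = 0.048), a fitted value that rests on 0 counts in olive oil livers and is no bound. Bard1 came next without passing, at 5.73 ± 1.74 (adjusted p = 0.057), also with 0 counts in olive oil livers. Leaving out 1 sample ended the call of Xrcc2 in 10 of 16 fits and that of Fanci in 12 of 16. The injected and the operated animals belong to separate experiments by the headers of the count files, so experiment and challenge cannot be told apart in this difference. Between olive oil and PH day 0 livers, 0 of 39 genes passed (edgeR), where 2.42% of all genes did, 1.19% higher and 1.23% lower in olive oil livers. At an unadjusted p under 0.05 there were 4 of 39 (10.3%), against 14.4% of all genes, namely Fancb (2.46 ± 0.95) and Xrcc2 (-1.32 ± 0.59), as olive oil over PH day 0, and Fanci and Bard1, both with 0 counts in olive oil livers. With DESeq2 and limma-voom 0 of 39 passed as well.

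Other genes of the same pathways, from lists drawn up alongside the 39, moved in part. Of other homologous recombination genes, 10 of 32 tested rose after CCl4 (31.2%, against 11.3% of all genes tested) and 4 of 26 after PH (15.4%, against 9.73%), and 0 fell. Rpa1, which coats single strands, rose by 1.09 ± 0.18 after CCl4 and 0.39 ± 0.13 after PH. Fignl1, with 185 counts in CCl4 livers and 2 in olive oil livers, rose after CCl4 as well. Rbbp8, which starts end resection, rose by 1.38 ± 0.26 after CCl4 and 1.02 ± 0.30 after PH. The recombination accessory gene Swi5 rose by 0.32 ± 0.09 after PH and did not pass after CCl4 (-0.03 ± 0.19).

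Of other checkpoint genes, 9 of 18 rose after CCl4 and 3 of 14 after PH (21.4%), and 0 fell. Topbp1, the activator of ATR, rose by 2.11 ± 0.21 after CCl4 and 0.64 ± 0.18 after PH. Clspn, the adaptor between ATR and CHK1, had 158 counts in CCl4 livers and 0 in olive oil livers, and Timeless, of the fork protection complex, rose by 2.97 ± 0.40. H2afx, the histone marked at breaks, rose by 1.17 ± 0.29 and its reader Mdc1 by 0.62 ± 0.21 after PH. Of other Fanconi genes, 2 of 11 rose after CCl4 (18.2%, against 11.3% of all genes tested). They were the ubiquitin conjugating enzyme gene Ube2t and the deubiquitinase gene Usp1 (0.81 ± 0.21). After PH 0 of 9 rose, against 9.73% of all genes tested. The core complex gene Faap100 fell (-0.93 ± 0.24), or 11.1% of the list against 8.01% of all genes tested.

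In the remaining lists the shares that rose or fell were under those of all genes tested, 11.3% and 11.6% after CCl4 and 9.73% and 8.01% after PH. Nucleotide excision repair had 0 of 19 risen or fallen after CCl4 and 0 of 18 risen after PH, where Gtf2h4, a subunit of the repair helicase, fell (-0.73 ± 0.23). Translesion synthesis had 0 of 11 called in either comparison and the other mismatch repair genes 0 of 6 after CCl4 and 0 of 5 after PH. Other end-joining genes had 1 of 11 risen after CCl4 (9.09%), Polq, the polymerase of an alternative pathway, with 85 counts in CCl4 livers and 0 in olive oil livers, and 0 of 10 after PH. Base excision and single-strand break repair had 2 of 19 risen after CCl4 (10.5%), Neil3, a glycosylase, and Apex2 (1.18 ± 0.23), and 0 of 17 after PH.

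Markers of dividing cells moved with the repair genes. The 21 genes that rose after CCl4 summed to 177, 227 and 162 CPM in the CCl4 samples, against 45.3, 47.8 and 43.1 CPM in the olive oil samples. In the surgical groups they summed to 76.8, 82.3, 120.6, 96.5 and 88.4 CPM in the PH day 3 samples, against 47.4, 49.1, 50.9, 62.0 and 43.5 CPM in the PH day 0 samples. The surgical groups did not overlap. The calls after PH were not used to part the 21 from the other 18, and all 11 genes that rose after PH with no filter were among the 21. The 39 were listed with earlier results of these data known, so the surgical sums are descriptions as well. Over all genes, 46.1% of those that rose after CCl4 also rose after PH with no filter. The other 18 genes summed to 296 to 379 CPM in CCl4 livers, 305 to 345 CPM in olive oil livers, 320 to 358 CPM in PH day 3 livers and 326 to 350 CPM in PH day 0 livers. These ranges overlap, but the sums include Rad23b, at 103 to 174 CPM in CCl4 livers. The 17 genes without it summed to 193, 215 and 205 CPM in the CCl4 samples, against 188, 175 and 159 CPM in the olive oil samples, with no overlap, and to 157 to 185 CPM in PH day 3 livers, against 167 to 193 CPM in PH day 0 livers, with overlap. Since the 21 and the 18 were parted by their call after CCl4, their CCl4 and olive oil sums are descriptions.

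The 10 proliferation markers, of which 10 of 10 rose after CCl4 and 8 of 9 tested after PH, summed to 399.5 to 680.7 CPM in CCl4 livers, 24.0 to 31.8 CPM in olive oil livers, 147.6 to 286.6 CPM in PH day 3 livers and 25.0 to 40.8 CPM in PH day 0 livers. None was at 0 counts in any group. Over all genes tested, 11.3% rose after CCl4 and 9.73% after PH. The 21 repair genes came to 33.3% to 44.3% of the marker sum in CCl4 livers, 150% to 188% in olive oil livers, 33.7% to 52.1% in PH day 3 livers and 149% to 196% in PH day 0 livers. The part of cell division in the repair gene values was not tested.

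**Figure D4:**
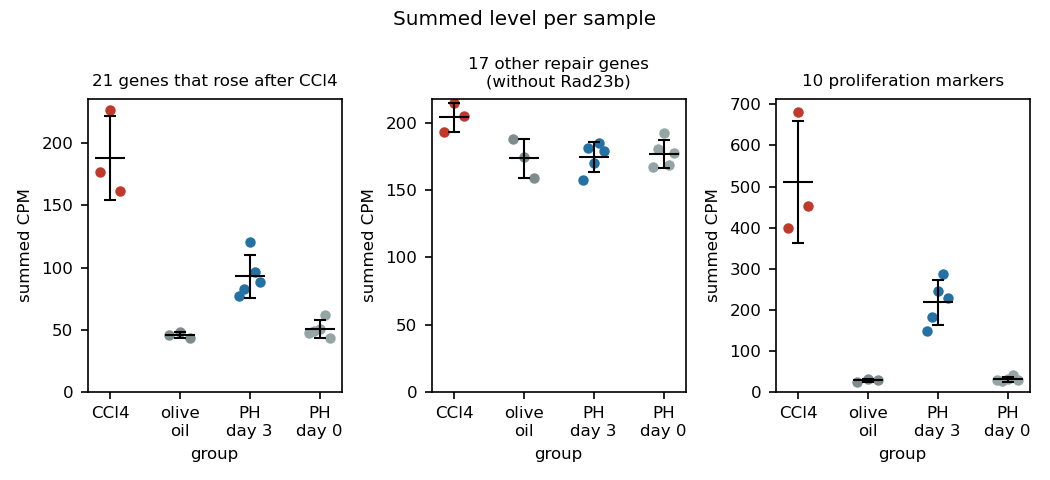
Summed CPM per sample of the 21 repair genes that rose after CCl4, of 17 of the other 18 (without Rad23b, the gene of highest level) and of 10 proliferation markers, in CCl4, olive oil, PH day 3 and PH day 0 livers. Points are samples, and bars the mean ± SD. In all 3 panels CCl4 lies above olive oil without overlap, by the least in the middle one, and PH day 3 lies above PH day 0 without overlap in the left and right panels and overlaps it in the middle one.

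Markers of other cells moved in part. Over all genes tested, 11.3% rose and 11.6% fell after CCl4, and 9.73% rose and 8.01% fell after PH. Stellate cell and myofibroblast markers, with 5 of 8 risen after CCl4 and 4 of 8 after PH, summed to 318 to 941 CPM in CCl4 livers, 71.1 to 98.7 CPM in olive oil livers, 180 to 688 CPM in PH day 3 livers and 69.9 to 150 CPM in PH day 0 livers. Macrophage markers, with 2 of 8 and 0 of 7 risen, summed to 316.4 to 525.9, 159 to 474, 201 to 370 and 200 to 302 CPM in these groups. Cholangiocyte markers, with 1 of 2 and 0 of 2 tested risen, summed to 175 to 293, 53.3 to 108, 137 to 246 and 77.6 to 179 CPM. Endothelial markers had 1 of 7 risen after CCl4 (14.3%, near the share of all genes) and 2 of 7 fallen after PH (28.6%). They summed to 95.2 to 109, 94.5 to 103, 105 to 172 and 148 to 183 CPM. Neutrophil markers summed to at most 56.5 CPM and lymphocyte markers to at most 4.70 CPM in any sample, with Ly6g at 0 counts in all groups but CCl4, Mpo at 0 in both PH groups, Cd3e at 0 in olive oil livers, Nkg7 at 0 in olive oil and PH day 3 livers and Cd8a at 0 in PH day 0 livers. Red blood cell markers, with 5 of 5 fallen after CCl4 and 1 of 5 after PH, summed to 134 to 242, 437 to 515, 690 to 1884 and 757 to 2048 CPM. In whole liver, fewer cells of a type and less RNA per cell cannot be told apart, and the part of these cells in the repair gene values was not tested.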

How the data were processed

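Polyadenylated RNA of 16 liver samples was sequenced, and for each sample the authors deposited a file of raw counts by gene. Counting used featureCounts 1.6.2 on exons of Ensembl 95 genes (GRCm38), reverse-stranded and with no option for multi-mapping or overlapping reads, per the file headers, so reads shared by genes were not counted. STAR 2.5.1 and Subread are named per the submitters' processing notes. Symbols came from GENCODE M21 (Ensembl 96), which named 54723 of 54838 identifiers, and start regions from RefSeq (GRCm38.p6). All 16 files differed from each other.

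Counts were tested with edgeR 4.0.16 (robust quasi-likelihood F test, TMM factors, filterByExpr with minimum count 10 and minimum total 15) in R 4.3.3 over all genes, and a gene was called at a Benjamini-Hochberg adjusted p under 0.05. CCl4 and olive oil, and PH day 3 and PH day 0, were fitted separately, and the difference of the responses and the baselines in a fit of 4 groups. The SE was obtained from the log2 fold change and the square root of F. Exon length for CPM per kilobase came from the same files. Folds against 3 or fewer counts are ratios of summed counts per summed scaled library size, with 95% intervals (exact binomial); these and the floor of 3 counts cover counting error only. Alternatives were RLE or library-size scaling, no filter, a filter of 1 CPM, DESeq2 1.42.0, limma-voom (3.58.1), the 4-group fit, the PH replicate number as a block, an adjusted p under 0.01 and each sample left out. The baseline alternatives, and the use of the fit with no filter for genes under the filter, were added after the data were seen. Scripts were tested on simulated data with changes of 1.5-fold, 2-fold and 4-fold. The CCl4 comparison recovered 4.48%, 20.9% and 87.9% of these, with 3 false calls in 78. The PH comparison recovered 35.8%, 68.7% and 95.5%, with 13 in 146. The test of the difference recovered 0%, 17.9% and 57.6%, with 2 in 52. A gene that did not pass may thus have changed.

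The 39 genes and all other lists were chosen with earlier results of these data known, so no test over a list was made. Every one of the 39 is named. Values of every sample are given for the 8 genes of smallest adjusted p in each comparison, those called in the difference, and the highest per kilobase, and from other lists the 3 called genes of smallest adjusted p, except a gene that is not reported here. Values of single samples given for other genes were chosen after they were seen. Figures were made with matplotlib 3.10.9 in Python 3.11.15.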

Additional observations from a re-analysis of the deposited data

Results flagged for a closer look

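Of 78 groups of 5 samples tested, 6 held a sample far from the other 4, where chance gives about 1 in 20. At PH day 3, Exo1 was at 0.313 CPM in replicate 14, below the others, Hus1 at 2.19 CPM in replicate 14, below the others, Fance at 9.18 CPM in replicate 16 and Parp2 at 15.3 CPM in replicate 13, both above the others. At PH day 0, Fancc was at 0.922 CPM in replicate 15, below the others, and Chek1 at 3.43 CPM in replicate 16, above the others.

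For 2 genes the change after CCl4 differed from that after PH by the test of the difference itself, Xrcc2 by 2.73 and Fanci by 5.16 on the log2 scale, each on 3 samples against 3 and 5 against 5. Leaving out 1 sample ended the call of Xrcc2 in 10 of 16 fits and that of Fanci in 12 of 16. The value of Fanci rests on 0 counts in olive oil livers and is no bound.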

How the results depend on the processing

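After CCl4, 14 to 20 of 39 genes rose with 1 sample left out and 16 to 26 under the other alternatives, lowest at an adjusted p under 0.01, and 0 fell in any of these fits. With library size alone the median of the 39 was 1.599, that of the difference 1.06 with 5 genes passing, and the summed CPM of the 39 averaged 650.5 in CCl4, 326.7 in olive oil and 363.1 in PH day 0 livers. After PH, 11 rose with no filter, 8 with a filter of 1 CPM and 12 in the 4-group fit, where 39, 33 and 39 of the genes were tested in place of 25. With 1 sample left out, 3 to 5 rose and 0 to 1 fell, with 25 to 30 tested. In the difference, 4 passed with DESeq2, 1 with limma-voom, 0 at an adjusted p under 0.01 and 0 to 3 with 1 sample left out. The cause was not tested.

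Genes near 0 changed sign. With library size alone these were, after CCl4, Rad50 (0.13), Rad23b (0.44) and Xrcc5 (0.32), and after PH, Fancl (0.0665), Fancm (0.12), Xrcc1 (0.0287), Xrcc5 (0.0938), Hus1 (0.0597) and Rad17 (0.0587). With limma-voom they were Fancc (-0.0251) and Atm (-0.0424) after CCl4. With 1 sample left out, changes after CCl4 ran from -0.14 to 0.10 for Atm, -0.33 to 0.40 for Fancc, -0.0896 to 0.18 for Rad1 and -0.19 to 0.16 for Rad23b. After PH they ran from -0.0228 to 0.17 for Atr, -0.0445 to 0.34 for Chek2, -0.12 to 0.29 for Fancc, -0.19 to 0.0633 for Fancl, -0.19 to 0.17 for Fancm, -0.23 to 0.0942 for Hus1, -0.20 to 0.0205 for Rad17, -0.0240 to 0.19 for Rad50 and -0.14 to 0.0370 for Xrcc5.

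Over all genes, 1492 to 3513 were called after CCl4, 384 to 931 in the difference and 84 to 232 between baselines with 1 sample left out, against 2599, 633 and 287. Between baselines DESeq2 called 437 and a fit of those 2 groups 445.

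The PH replicate numbers were not taken as pairing the samples, since only 1 of 5 same-numbered pairs correlated above 0.1. That 3 of 5 PH day 3 samples correlated best with their own number is a hint from the data, not from the design. With the number as a block, 2 of the 39 genes rose and 1864 genes in all were called, against 1871. Genes of few counts limit the PH comparison, where 11 of the 39 had under 10 counts in every PH day 0 sample.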
